A study of Saccharomyces cerevisiae with 24 samples.

Results

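Transcript levels of 9 genes of iron uptake and heme breakdown were followed in yeast after a shift of temperature. The genes were chosen by name, as known genes of these routes, with earlier results of these data known. They were FET3, FTR1, SIT1, ARN1, ARN2, FIT2, FIT3, HMX1 and AFT1. All 9 were found among the 5449 yeast genes measured. The cells were Saccharomyces cerevisiae S288C, a haploid laboratory strain, grown in SD medium, a synthetic minimal medium with glucose. Cultures grown at 28 °C were then held at 1 of 3 temperatures, 37 °C (called heat here), 10 °C (cold) or 28 °C as before (control). The labels name no other allele or agent. Each temperature was sampled at 0, 15, 30 and 60 min and at 2, 4, 8 and 24 h, with 1 array for each temperature and time and 24 arrays in all. The study followed how gene expression changes with time in heat and in cold.

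Iron enters a yeast cell by several routes that are switched on together when iron is short. The transcription activator Aft1 moves to the nucleus in iron-poor cells and turns on the genes of what is called the iron regulon. One route reduces ferric iron at the cell surface and passes it through a complex of the copper-containing oxidase Fet3 and the permease Ftr1. Another takes up iron bound to siderophores, the iron chelators that microbes secrete, through transporters of the Arn family. Mannoproteins of the Fit family hold siderophores in the cell wall. Hmx1 is the heme oxygenase of the endoplasmic reticulum, which breaks heme down and releases its iron. HMX1 is itself an Aft1 target, so it is part of the regulon. Only transcript levels were measured here, and heme turnover was not.

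Up to 8 h, the largest change from its own start among the 9 genes was that of HMX1 in the cold culture and that of SIT1 in the heat culture. HMX1 was 15.5-fold above its own start after 8 h at 10 °C, while most uptake genes of the same culture stayed within 2-fold of theirs. SIT1 was 9.19-fold below its own start after 8 h at 37 °C. The siderophore transporter ARN1 was lower in the cold, and FIT2 and FIT3 stood highest in each culture at 24 h, in the control culture as well. In heat, 8 of the 9 genes had a negative fitted change relative to the control from 2 to 8 h (48.0% of all genes). In the cold 4 of 9 did (47.3%). None of the 9 fitted changes passed the test described below in heat, where 0.0551% of all genes passed, or in cold, where 0% did. The single-array values above were not tested. HMX1 and ARN1 passed from the first hour to 2 to 8 h in the cold (24.7% of all genes passed). HMX1 and SIT1 passed in heat against cold from 2 to 8 h (6.5%).

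The authors deposited log2 levels made by RMA (which combines the probes of a probe set into 1 value and equalises brightness distributions between arrays), so a difference of 1 is a 2-fold difference. Each of the 9 genes had 1 probe set of its own, and none of its 24 values was below 6.53, the level under which 95% of the probe sets of other species lay. Changes were fitted with limma for an early window (15, 30 and 60 min) and a middle window (2, 4 and 8 h), each against the control arrays of the same times and relative to the same difference at 0 min. The arrays of a window stand in for replicates. A standard error (SE) and an adjusted p therefore describe scatter between times and not between independent cultures, and all 9 genes were tested together with the other genes, with Benjamini-Hochberg adjustment over 5449 genes and a threshold of 0.05. The 24 h arrays had a term of their own, because by then the control culture had itself moved: 20.3% of all genes were at least 2-fold above their 0 min level in the control and 20.5% at least 2-fold below it. Fewer cells, less RNA per cell and a different make-up of the RNA cannot be told apart in such samples.

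The heat culture started from other levels than the other cultures did. At 0 min, 7 of the 9 genes differed by at least 2-fold between the heat and control arrays, as did 44.0% of all genes. The differences, heat minus control, ran from -2.98 for FIT2 to 1.66 for ARN1. Between the cold and control arrays at 0 min none of the 9 genes differed by 2-fold (0.551% of all genes did), and the differences lay between -0.28 (ARN1) and 0.08 (SIT1). Per the labels' protocols the heat samples were labelled with an additional amplification kit, so kit and heat series cannot be told apart. Heat levels are therefore read below against the heat culture's own 0 min array. Fitted heat changes are relative to the control at the same times, with the 0 min difference taken off where the comparison uses it.

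**Figure D1:**
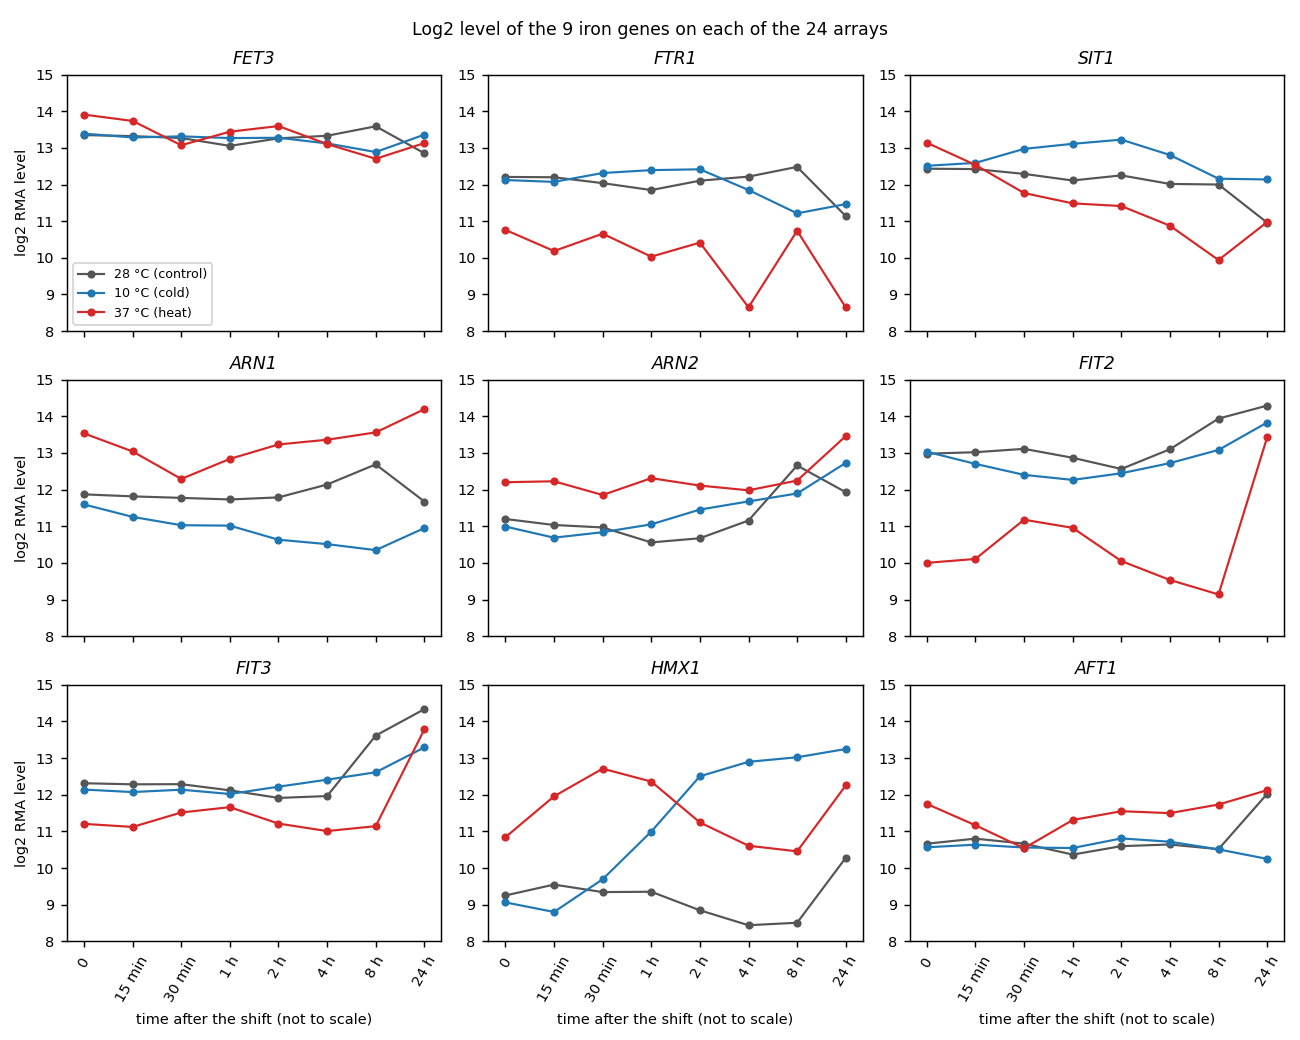
Log2 RMA level (vertical axis) of each of the 9 genes at the 8 sampling times (horizontal axis, not to scale), 1 point per array, in the control (grey), cold (blue) and heat (red) culture. HMX1 in the cold runs from 9.06 at 0 min to 13.25 at 24 h, SIT1 in heat from 13.14 to 9.94 at 8 h, and the heat culture starts apart from the other cultures for most genes.

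HMX1 had the largest change of the 9 genes. Its cold level was 9.06 at the start, 8.80, 9.70 and 11.00 at the 3 early times, 12.51, 12.90 and 13.02 from 2 to 8 h, and 13.25 at the last time. In the control it was 9.25, 9.55, 9.35 and 9.36 from 0 min to 1 h, then 8.85, 8.44 and 8.51 at 2, 4 and 8 h, and 10.28 at 24 h. From 1 h on, every cold array was above every control array, and the cold level was still higher at each later time than at the one before.

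Measured from its own 0 min array, HMX1 in the cold was 10.9-fold higher by 2 h, 15.5-fold by 8 h and 18.2-fold on the last array. Set against the control, HMX1 rose from the early to the middle cold window by 3.79 ± 0.53 (SE; limma adjusted p = 0.00286), the 5th highest change of all genes. In that comparison 24.7% of all genes passed the threshold. The call was kept when any time point was left out, with values between 3.21 and 4.41. Relative to 0 min, the middle window stood 4.40 ± 0.75 above the control, the 2nd highest value of all genes, with limma adjusted p = 0.0568. Of all 5449 genes none passed in that comparison (0%), and 1143 had an unadjusted p under 0.05. HMX1 did pass there without the 15 min arrays (adjusted p = 0.0481), without the 1 h arrays (0.0155) and without the 2 h arrays (0.0196).

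The control culture entered this difference as well. In a fit of the 7 control arrays up to 8 h, HMX1 stood at -0.78 ± 0.12 in the middle window relative to the first hour (limma adjusted p = 0.505). No gene passed in that fit (0%), and 458 had an unadjusted p under 0.05. Markers of 1 yeast mating type, a, also differed between the cold windows. S288C is of mating type alpha, and 2 of 3 a-cell markers rose from the early to the middle cold window, where 24.7% of all genes passed. These were MFA1 by 0.91 ± 0.29 (limma adjusted p = 0.0413) and MFA2 by 1.32 ± 0.37 (0.0246). The a-cell receptor gene STE2 stood at 0.64 ± 0.39 (0.241). None of the 3 alpha-cell markers passed there, with changes from 0.05 to 0.51 (lowest limma adjusted p = 0.555). In heat against cold, middle window, 2 of 3 alpha-cell markers and 1 of 3 a-cell markers passed as lower, beside 6.5% of all genes passing. The summed level of the 3 a-cell markers ranged, in log2, from 9.38 to 13.5 in the cold, from 9.29 to 11.1 in the control and from 9.43 to 11.5 in heat. Summed alpha-cell markers ranged from 15.2 to 15.6 in the cold, from 12.8 to 15.5 in the control and from 12.0 to 15.0 in heat. No marker value of either type lay below the 6.53 bound, and their part in the HMX1 result was not tested.

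In heat, HMX1 was high early and then came back. Its level was 10.84 at the start, 11.96, 12.71 and 12.36 at the 3 early times, 11.25, 10.61 and 10.46 from 2 to 8 h, and 12.25 at the last time. The 3 early arrays were the highest up to 8 h, and the 4 h and 8 h arrays lay slightly under the start. The fitted early change was 1.34 ± 0.75 (limma adjusted p = 0.621) and that of the middle window 0.58 ± 0.75 (1.00), so neither passed. In these comparisons 0.0184% and 0.0551% of all genes passed.

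The later courses of HMX1 in heat and cold differed. From 2 to 8 h the change in heat was lower than that in cold (fitted difference -3.82 ± 0.75, limma adjusted p = 0.0255), the 5th lowest value of all genes. The 3 cold arrays of that window were 3.44 to 3.96 above their start, and the 3 heat arrays lay between -0.38 and 0.40. In this comparison 6.5% of all genes passed. The call was lost without the 30 min arrays (limma adjusted p = 0.0586), without the 4 h arrays (0.103) and with 2 to 24 h as 1 window (0.0767). The difference itself lay between -4.20 and -3.55 whichever later time was left out, with the 0 min arrays always kept. At 0 min HMX1 differed from the control by 1.59 in heat and by -0.19 in the cold. Without the 0 min baseline, the middle window stood 2.17 above the control in heat and 4.21 above it in the cold.

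**Figure D2:**
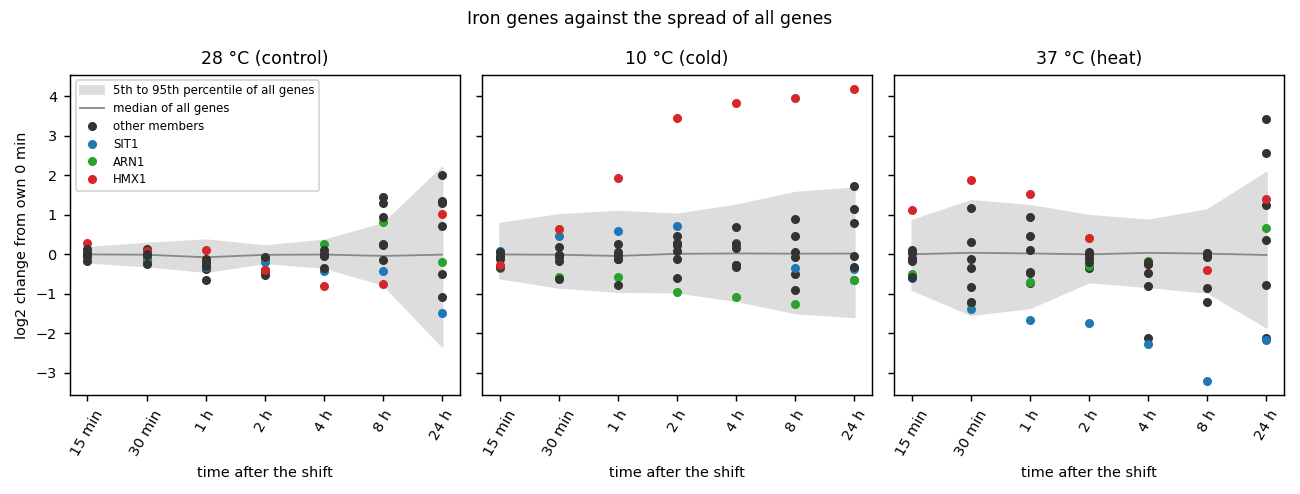
Log2 change from the 0 min array of the same culture (vertical axis) at each later time (horizontal axis) for the 9 genes (points), over the 5th to 95th percentile of all 5449 genes (grey band) and their median (grey line). HMX1 (red) leaves the band in the cold from 1 h on, reaching 4.18 at 24 h, and SIT1 (blue) lies under it in heat at 8 h with -3.20.

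The 3 siderophore transporters each had a course of its own. SIT1 carries ferrioxamine-type siderophores. Its heat level was 13.14 at the start, 12.53, 11.77 and 11.49 at the 3 early times, 11.41, 10.88 and 9.94 from 2 to 8 h, and 10.98 at the last time. In the cold it was 12.51 at 0 min, 12.59, 12.97 and 13.11 in the early window, 13.22, 12.81 and 12.16 in the middle window, and 12.14 at 24 h. The control array values lay between 12.43 and 12.00 up to 8 h, with 10.96 at 24 h. Heat was thus lower at every time from 15 min to 8 h than at the one before, while the cold values went up to 2 h and back afterwards.

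From 2 to 8 h the change of SIT1 in heat was lower than that in cold (fitted difference -2.62 ± 0.53, limma adjusted p = 0.0255), the 17th lowest of all genes. Leaving out the 30 min arrays (limma adjusted p = 0.0597) or the 4 h arrays (0.103), or taking 2 to 24 h as 1 window (0.110), ended the call. The difference stayed between -2.70 and -2.50 for every later time left out, with the 0 min arrays always kept. At 0 min SIT1 differed from the control by 0.71 in heat and by 0.08 in the cold. Without the 0 min baseline, the middle heat window stood at -1.35 relative to the control, beside -2.05 with it. For 15 to 60 min the difference was -1.59 ± 0.53 with adjusted p = 0.0630, where 16.2% of all genes passed. It was past the threshold there without the 15 min arrays (-2.04, adjusted p = 0.0193) and without the 8 h arrays (0.0390). Heat alone, against the control, gave -1.05 ± 0.53 early (limma adjusted p = 0.608) and -2.05 ± 0.53 in the middle window (0.341), the 5th lowest value of all genes in the latter. Neither passed.

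ARN1, the transporter of ferrichrome-type siderophores, was lower in the cold. Its cold levels were 11.60 at 0 min, 11.26, 11.03 and 11.02 in the early window, 10.63, 10.51 and 10.35 in the middle window, and 10.95 at 24 h. The control stood at 11.87, 11.82, 11.78, 11.73, 11.79, 12.14, 12.69 and 11.68 at the same 8 times. All cold arrays lay below all control arrays, and the gap was widest at 8 h, where the control was also at its highest. Relative to the control, ARN1 fell by 1.03 on the log2 scale from the early to the middle cold window (SE 0.28, limma adjusted p = 0.0216). That call was lost without the arrays of 15 min (adjusted p = 0.0844), 30 min (0.0624), 1 h (0.0585), 4 h (0.0869) or 8 h (0.0745), and with 2 to 24 h as 1 window (0.156). The value was -1.43 ± 0.39 for the middle window relative to 0 min (adjusted p = 0.0767), and it passed without the 2 h arrays (-1.71, adjusted p = 0.0323).

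In heat ARN1 had its lowest level at 30 min, 12.29 against 13.53 at 0 min, and was back at 13.56 by 8 h and at 14.19 at 24 h. The fitted changes, -0.71 ± 0.39 early and -0.48 ± 0.39 in the middle window, did not pass (limma adjusted p = 0.619 and 1.00). ARN2 carries siderophores of the triacetylfusarinine type. It was higher at the end of each series than at its start. Its cold levels were 10.99 at 0 min, 10.69, 10.84 and 11.05 early, 11.46, 11.68 and 11.90 from 2 to 8 h, and 12.73 at 24 h. The control reached 12.66 at 8 h and 11.93 at 24 h from a start of 11.20, and heat 13.46 at 24 h from a start of 12.20. Up to 8 h the heat arrays lay within 0.35 of that start. ARN2 passed in no comparison, with fitted values between -0.77 (heat against cold, middle window) and 0.56 (control, middle against early).

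FIT2 and FIT3 code for cell wall mannoproteins that retain siderophores. Their levels were highest at 24 h in all cultures. FIT2 stood at 14.29 in the control at 24 h against 12.98 at 0 min, at 13.83 in the cold against 13.03, and at 13.43 in heat against 10.00. FIT3 stood at 14.34 in the control against 12.32, at 13.29 in the cold against 12.14, and at 13.78 in heat against 11.21. Relative to 0 min the 24 h level of FIT2 was 2.48-fold higher in the control and 10.7-fold higher in heat, and that of FIT3 was 4.06-fold and 5.97-fold higher. The heat values rest on a start that was already lower than in the control, with differences of -2.98 for FIT2 and -1.11 for FIT3, so at 24 h the levels of the 3 cultures were closer together than at 0 min for FIT2.

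Between the start and 24 h, FIT2 in heat was 10.11, 11.18 and 10.96 in the early window and 10.05, 9.54 and 9.14 at 2, 4 and 8 h. The early arrays at 30 min and 1 h were thus the high ones and the 8 h array the lowest. The middle window was lower than the early one by a fitted 1.37 on the log2 scale (-1.37 ± 0.50), which did not pass (limma adjusted p = 0.182, with 0.147% of all genes called). In the cold FIT2 was 12.70, 12.40 and 12.27 early and 12.45, 12.72 and 13.08 from 2 to 8 h, with its lowest level at 1 h and the 0 min level reached again by 8 h. FIT3 in the cold held between 12.02 and 12.22 up to 2 h. No fitted change of FIT2 or FIT3 passed in any of the 9 comparisons.

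In the RefSeq gene order of assembly R64, FIT2 and FIT3 lie next to each other, between the siderophore-iron reductase gene FRE3 with a small open reading frame on one side and the reductase-like gene FRE5 on the other. FRE5 was under the 6.53 bound on 22 of 24 arrays. The exceptions were the 24 h arrays of the control (9.75) and of heat (9.22), while the cold array of that time was below the bound. FRE3 was 2.11, 1.49 and 1.31 above its start at 24 h in control, heat and cold. FRE3, FIT2 and FIT3 thus all stood above their 0 min levels at 24 h in each culture.

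FET3 and FTR1, the oxidase and the permease of the reductive route, work as 1 complex. FET3 had the narrowest range of levels of the 9 over all 24 arrays, from 12.70 to 13.91. That range was at percentile 6.48 of those of all genes. The start difference of the heat series enters the ranges of all genes. The mean level of FET3 was high, at percentile 95.7 of all genes. In the cold it stood between 12.89 (8 h) and 13.39 (0 min), and in the control between 12.85 (24 h) and 13.59 (8 h). In heat its levels were 13.91, 13.73, 13.07, 13.44, 13.59, 13.10, 12.70 and 13.13 at the 8 times. FET3 was thus not steady in heat, with a change of -1.21 from its start at 8 h. The middle window in heat gave -0.82 ± 0.40 (limma adjusted p = 0.912).

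FTR1 ranged further, from 8.65 to 12.48. Its cold levels were 12.12, 12.07, 12.31, 12.39, 12.41, 11.85, 11.21 and 11.47 in order of time. In the control they were 12.21, 12.20, 12.04, 11.85, 12.10, 12.22, 12.48 and 11.14, and the gap between both cultures was widest at 8 h. In heat it was 10.76, 10.19, 10.66, 10.03, 10.42, 8.65, 10.74 and 8.65 from 0 min to 24 h. The 4 h and 24 h heat arrays were the low ones, and the 8 h array between them was close to the start. The SE of FTR1 was the largest of the 9 genes in comparisons with the 0 min baseline (0.81). The 24 h arrays, with terms of their own, do not enter that SE. The fitted values of -0.29 early and -0.89 in the middle heat window did not pass (limma adjusted p = 0.917 and 1.00).

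AFT1 codes for the activator of the regulon, whose activity is known to be set mainly by its location in the cell and by iron-sulfur signals. In the cold its level stayed between 10.25 and 10.81, and in the control between 10.37 and 10.80 up to 8 h, with 12.02 at 24 h. In heat it was 11.75 at 0 min, 11.17, 10.54 and 11.31 early, 11.55, 11.50 and 11.73 from 2 to 8 h and 12.13 at 24 h. The 30 min heat array was the low one, 1.21 under its start. None of its changes passed, with -0.69 ± 0.35 early in heat (limma adjusted p = 0.608) and 0.19 ± 0.35 in the middle cold window (0.831). At 24 h AFT1 was 1.36 above its start in the control, 0.37 above in heat and 0.32 below in the cold. Its paralogue AFT2 stood at 2.69, 1.51 and 0.68 above its start at that time.

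**Figure D3:**
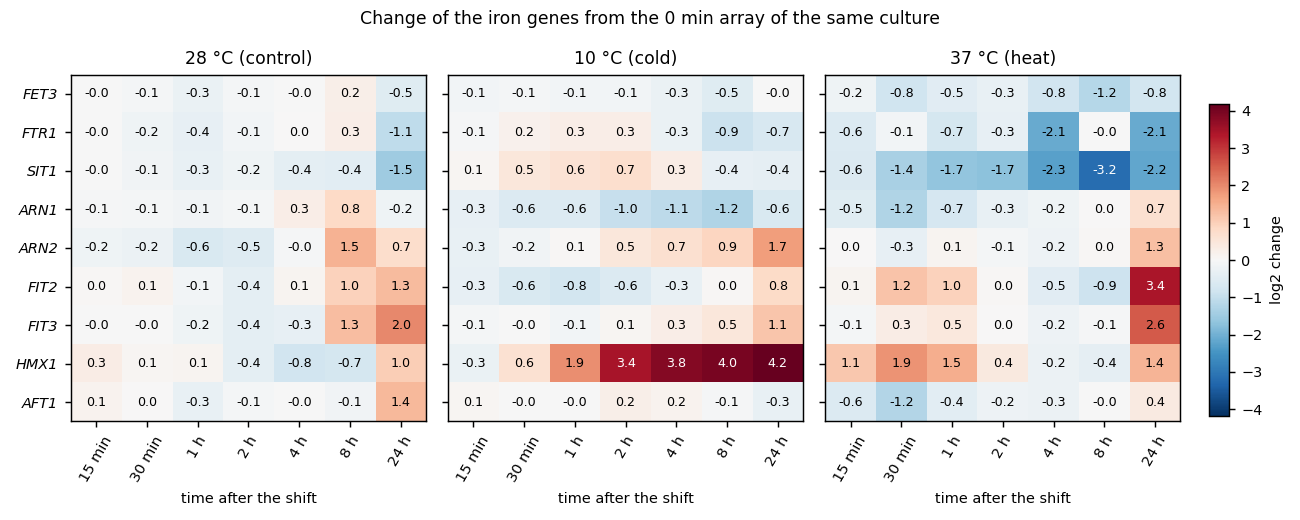
Log2 change of each of the 9 genes (rows) from the 0 min array of the same culture at each later time (columns), in the control, cold and heat culture, with the value printed in each cell and red for higher, blue for lower. The HMX1 row in the cold reaches 4.18, SIT1 in heat reaches -3.20 at 8 h and FIT2 in heat 3.42 at 24 h, and the last column of the control shows changes from -1.47 to 2.02.

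The median change of the 9 genes lay close to that of all genes in the cold and below it in heat. The median change in the cold was 0.07 early and 0.09 in the middle window, beside 0.01 and 0.04 for all genes. In heat it was -0.29 early and -0.48 in the middle window, beside 0.05 and 0.02 for all genes. Relative to the control, 8 of the 9 values were negative in the middle heat window (48.0% of all genes). The control enters these values. At 8 h, 6 of the 9 genes were above their start in the control and 2 in heat. ARN1, ARN2 and FIT3 then stood at 0.82, 1.46 and 1.30 in the control and at 0.03, 0.04 and -0.06 in heat. Without the 8 h arrays, ARN2 (0.13) and FIT3 (0.28) were positive in middle heat. The middle heat window lay below the early one by a median of 0.60 (-0.60, against -0.01 for all genes), with 7 of 9 negative (51.1% of all genes). Heat against cold gave medians of -0.32 early and -0.48 in the middle window, beside 0.03 and -0.02 for all genes. When 1 time was left out, the middle heat median ran from -0.80 (without 2 h) to -0.18 (without 8 h) and that of heat middle against early from -0.92 (without 2 h) to -0.15 (without 8 h). At 4 h in heat all 9 genes lay below their start, by log2 values from -2.26 to -0.17, beside a median change of 0.04 for all genes. Of the 9, 2 were lower by at least 2-fold, beside 3.12% of all genes.

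By limma's adjusted p, 2 of the 9 passed in the cold, middle against early (HMX1 higher and ARN1 lower), where 24.7% of all genes passed. A further pair of calls, HMX1 and SIT1 lower, came in heat against cold in the middle window, where 6.5% did. None of the 9 passed in the other 7 comparisons. At an unadjusted p under 0.05, 1 of the 9 passed in the middle heat window (300 of all genes), 2 in the middle cold window (1143), 3 in heat middle against early (1098), 1 in heat against cold early (1803), 1 in the control (458), and none in early heat (455) or early cold (519). The early cold comparison called 0% of all genes. The median SE over all genes was 0.34 in comparisons with the 0 min baseline, 0.24 in middle against early and 0.10 in the control fit.

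**Figure D4:**
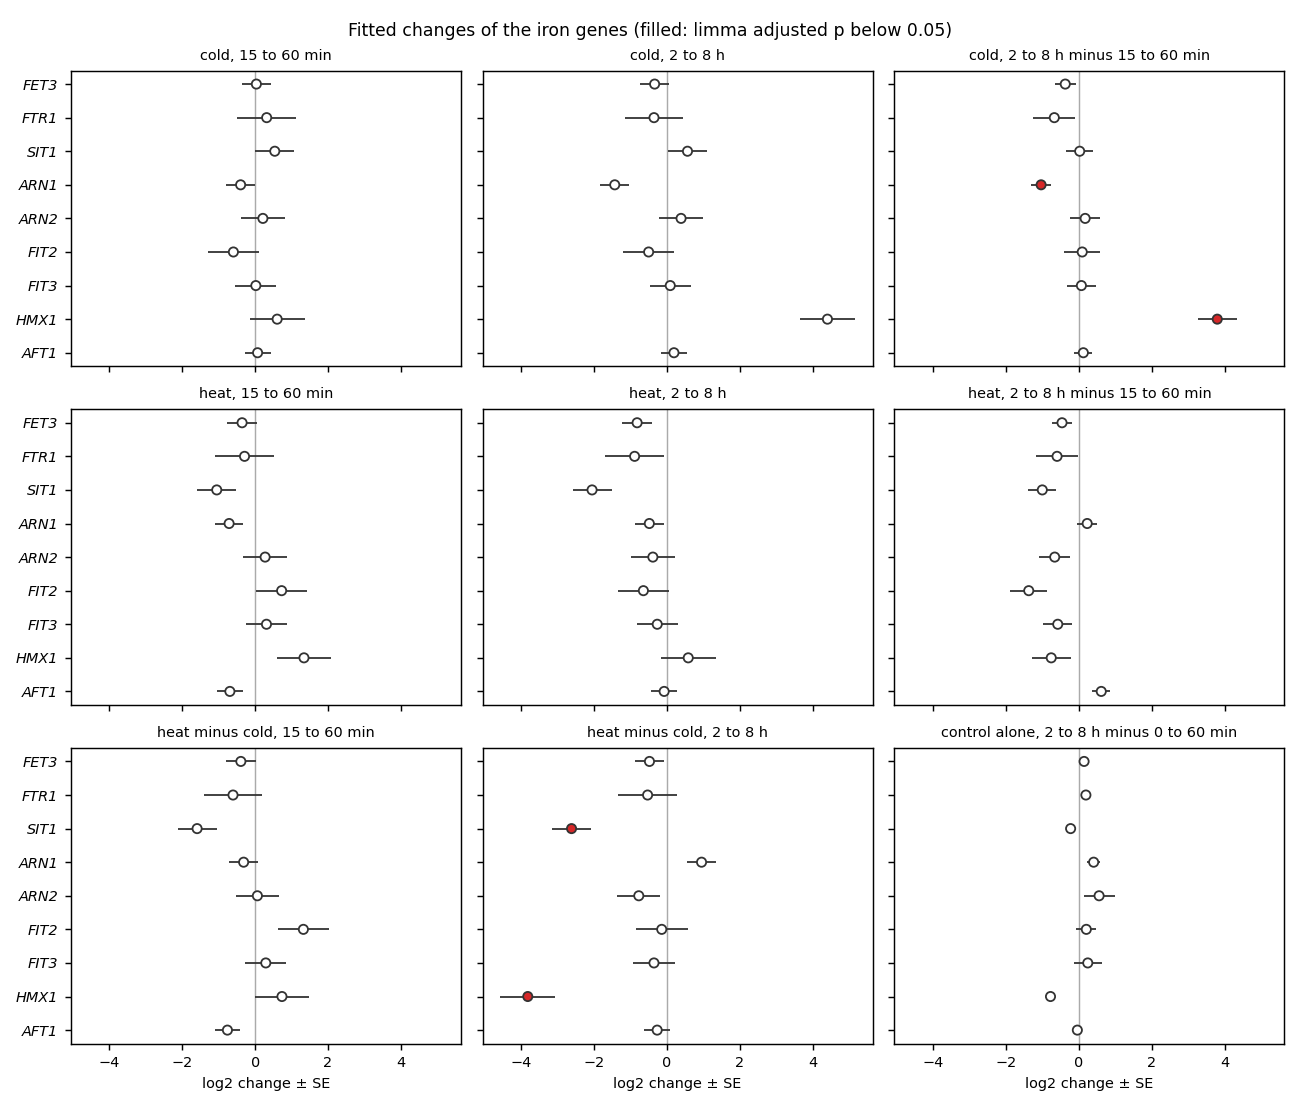
Fitted log2 change (horizontal axis, point) with its SE (bar) for each of the 9 genes in the 9 comparisons, with filled points for limma adjusted p below 0.05. The filled points are HMX1 and ARN1 in the cold, middle against early, and HMX1 and SIT1 in heat against cold in the middle window.

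Single arrays showed when the genes passed 2-fold. In heat at 30 min, 2 of the 9 were at least 2-fold above their start (HMX1 and FIT2) and 3 at least 2-fold below (SIT1, ARN1 and AFT1), beside 9.36% and 10% of all genes. At 8 h in heat none was above and 2 were below (SIT1 and FET3), beside 6.44% and 4.35%. At 8 h in the cold HMX1 was above and ARN1 below, beside 13.2% and 11.9%. In the control at 8 h, ARN2 and FIT3 were above and none below, beside 2.9% and 2.28%. Up to 4 h no member differed by 2-fold from its start in the control, where the ranges of the 6 arrays ran from 0.29 (FET3) to 1.11 (HMX1).

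At 24 h more of the genes stood apart from their start in every culture. In the control, FIT2, FIT3, HMX1 and AFT1 were at least 2-fold above and FTR1 and SIT1 at least 2-fold below, beside 20.3% and 20.5% of all genes. In heat, ARN2, FIT2, FIT3 and HMX1 were above and FTR1 and SIT1 below, beside 16.6% and 17.2% of all genes. In the cold, ARN2, FIT3 and HMX1 were above and none was below, beside 13.9% and 13%. FIT3 and HMX1 were thus at least 2-fold above at 24 h in each culture, including the one whose temperature was left alone.

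Over the 21 arrays after 0 min, the changes of FIT2 and FIT3 went together (Pearson r = 0.86 over arrays, and 0.96, 0.97 and 0.94 within cold, control and heat). FET3 and SIT1 had r = 0.82 over all, with 0.37 in the cold, 0.64 in the control and 0.83 in heat. FET3 and FTR1, the partners of 1 complex, had 0.53 over all, 0.60 in the cold, 0.96 in the control and 0.04 in heat. ARN1 and HMX1 ran opposite, with r = -0.73. Arrays of 1 culture follow each other in time and share a 0 min array, so these values describe the courses and carry no test. The genes outside the 9 whose course was most like the mean of the members other than AFT1 were SNA2 (r = 0.86), ATP5 (0.85), a subunit of mitochondrial ATP synthase, TIS11 (0.83), FOX2 (0.80), an enzyme of peroxisomal fatty acid breakdown, and PDR12 (0.78), an exporter of weak acids. For each member, r was taken with the mean of the other members, again without AFT1. It ran from -0.28 (ARN1) to 0.69 (ARN2), with FIT3 next at 0.44. The outside genes were picked for their high r, and the mean they were set against held every member but AFT1. The values of the members therefore cannot be compared with those of the outside genes. TIS11, an mRNA-binding protein that lowers mRNAs of iron-using proteins when iron is short, is itself a known Aft1 target.

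Other genes of iron handling were read in 10 further lists, in the comparison where HMX1 and ARN1 passed and 24.7% of all genes did. The counts of the lists are given beside that share, and no list was tested against it. From the early to the middle cold window, 1 of 8 genes of reductive and low-affinity uptake rose, FRE3 by 0.69 ± 0.22 (limma adjusted p = 0.0405), and 1 fell, the ferric reductase gene FRE1 by 0.84 (adjusted p = 0.0431). FRE2 (0.70 ± 0.25, adjusted p = 0.0605) and FET4, a low-affinity iron transporter gene (0.55 ± 0.41, 0.340), did not pass. Neither of the 2 remaining siderophore and cell wall genes passed, with 0.28 for ENB1 and -0.02 for FIT1, and none of 6 copper-loading genes did. Of 8 genes of vacuolar and mitochondrial iron transport MRS4, a mitochondrial iron carrier, rose by 1.24 ± 0.24 (adjusted p = 0.00651), and the vacuolar importer CCC1 stood at 0.12. CTH1, the homologue of TIS11, rose by 1.06 ± 0.27 (adjusted p = 0.0180), 1 of 4 genes of iron sparing, while TIS11 stood at 0.49 ± 0.46. Of 6 regulators only YAP5 rose, by 1.07 ± 0.34 (adjusted p = 0.0416), with AFT2 at -0.14.

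Of 16 genes of iron-sulfur cluster assembly, 4 fell in the same comparison and none rose, a count close to the 24.7% of all genes called: the scaffold gene ISU2 by 1.70 (adjusted p = 0.00710), GRX5 by 0.83, IBA57 by 0.83 and ERV1 by 0.68. ISU1, the paralogue of ISU2, stood at 0.26 ± 0.21. In heat against cold in the middle window, ISU2 (2.02 ± 0.48, limma adjusted p = 0.0347) and IBA57 (1.38 ± 0.33, 0.0370) were higher, opposite in sign to HMX1 and SIT1. Of 8 heme synthesis genes HEM3 rose in the cold, by 0.77 ± 0.26 (adjusted p = 0.0480). Of 17 iron-sulfur and heme enzymes 4 rose, SDH2 (1.51), CYT1 (1.62), the catalase gene CTT1 (3.24) and CYC7 (3.74, named after its value was seen and under the 6.53 bound on 6 arrays), and LEU1 fell by 1.10, with ACO1 at 0.25. Of 4 zinc uptake genes, read beside the iron lists, ZAP1 fell by 1.28 and ZRT2 by 0.91. In heat against cold in the early window, where 16.2% of all genes passed, 3 of the 17 enzymes were higher (CYC7, SDH2 and CTT1) and TYW1 was lower, FRE4 was lower by 0.94 and HEM14 higher by 1.10. No gene of the 10 lists passed in the other 6 comparisons.

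**Figure D5:**
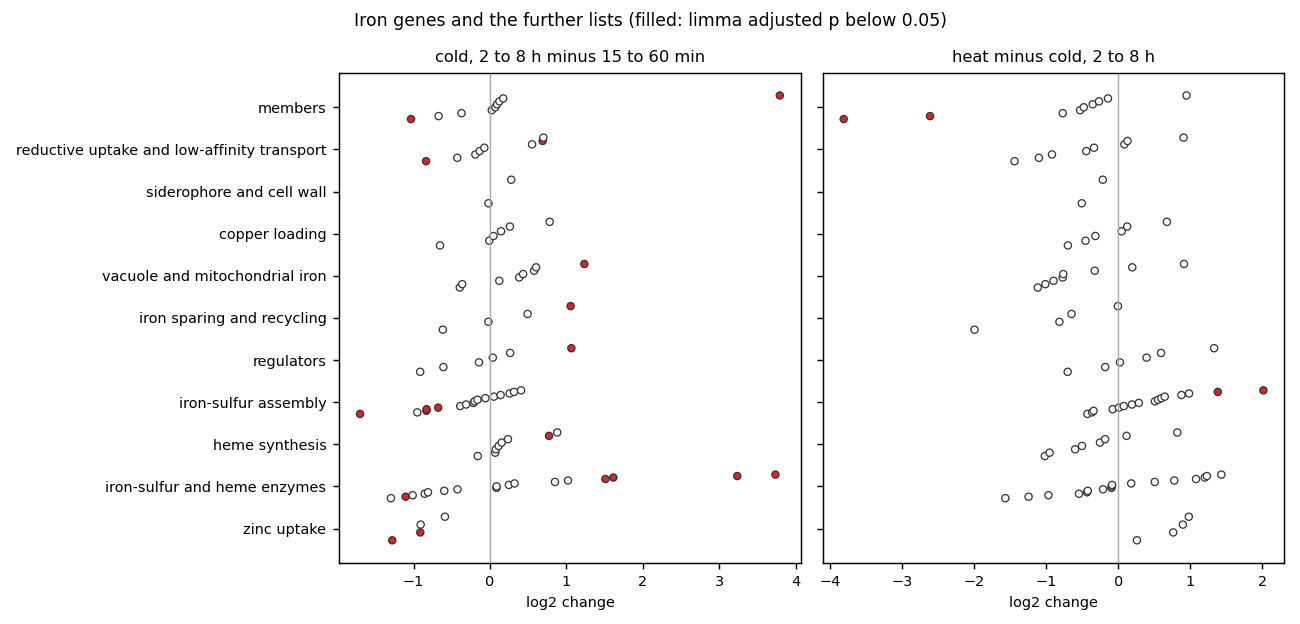
Fitted log2 change (horizontal axis) of each gene (point) of the 9 members and the 10 further lists (rows), in the cold, middle against early window (left), and in heat against cold, middle window (right), with filled points for limma adjusted p below 0.05. HMX1 is the rightmost point on the left at 3.79 and the leftmost on the right at -3.82, and the iron-sulfur assembly genes that passed lie on the other side in both panels.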

How the data were processed

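Per the submitters' processing notes the authors used RMA, and they deposited log2 values, 1 per probe set and array. The sources used here give neither the version of RMA nor the set of arrays normalized jointly. The 1-colour array holds 10928 probe sets, of which 5498 have 1 S. cerevisiae gene in the platform annotation, 1746 belong to other species and 3683 are unnamed here. Probe sets of the same gene were averaged (47 genes), which left 5449 genes.

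limma 3.58.1 (lmFit and eBayes, R 4.3.3) was run on the 24 arrays with a block for each time and terms for heat and cold at 0 min, 15 to 60 min, 2 to 8 h and 24 h (8 residual and 3.41 prior degrees of freedom). A second fit used the 7 control arrays up to 8 h (5 and 2.83). Middle against early does not use 0 min. The fits were tested on simulated data. The number of arrays limits the precision, and RMA understates changes of dim genes.

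The 9 members and the further lists were chosen with earlier results of these data known. Members are always named. From each list, genes past the threshold are named, at most 4, with a fixed set of others (CYC7 was added after its value was seen). No sequence was used here.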

Additional observations from a re-analysis of the deposited data

Results flagged for a closer look

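The fitted changes of HMX1 and SIT1 between 2 and 8 h differed between heat and cold, tested as a difference of both changes in the same model. HMX1, the heme oxygenase gene, gave a difference, heat minus cold, of -3.82 (limma adjusted p = 0.0255), with cold arrays 3.44, 3.83 and 3.96 above their start and heat arrays at 0.40, -0.23 and -0.38. SIT1, a siderophore transporter gene, gave -2.62 (adjusted p = 0.0255), with heat arrays at -1.73, -2.26 and -3.20 and cold arrays at 0.71, 0.29 and -0.35. The additional amplification kit of the heat series cannot be told apart from heat in either value. No group held enough arrays for a search for single outlying values.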

How the results depend on the processing

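Arrays of single times limit all results, since no time was repeated. In the settings that left out 1 time, 0 min was left out only in the control fit. Without subtracting the 0 min difference, the counts of genes called were 3994 in early heat, 4141 in middle heat, 1784 in early cold, 2236 in middle cold, 4245 in heat against cold early and 4141 in the middle window. In heat these counts hold the start difference of the heat series. With 2 to 24 h as 1 window they were 0 in early heat, 1 in middle heat, 4 in heat middle against early, 815 in cold middle against early, and 272 and 6 in heat against cold early and middle. After quantile normalization again they were 0 in early heat, 1 in middle heat, 38 in middle cold and 2 in heat middle against early, and 3 in the latter with dim genes left out. Leaving out 1 time gave 0 to 4 calls in early heat, 2 to 4 in middle heat, 0 to 32 in early cold, 0 to 418 in middle cold, 1 to 149 in heat middle against early, 240 to 1782 in cold middle against early, 163 to 1265 and 0 to 615 in heat against cold early and middle, and 0 to 1 in the control. The median of the members in heat against cold, middle window, was -1.29 without the 0 min baseline. The cause was not tested. HMX1 in middle cold passed after quantile normalization again (adjusted p = 0.0417).

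Of the member values under alternatives, 854 kept sign and side of the threshold, 26 newly passed with the same sign, 12 no longer passed and 53 changed sign. None of the 53 was a call, and 9 of them passed with the new sign, all without the 0 min baseline: ARN1, FIT2 and FIT3 in early heat, ARN1 and AFT1 in middle heat, ARN1, FIT2 and AFT1 in heat against cold early, and AFT1 in the middle window. Without the 0 min baseline, signs changed in early heat for FET3 (0.20), ARN1 (0.95), FIT2 (-2.25), FIT3 (-0.80) and AFT1 (0.39), in middle heat for ARN1 (1.18), ARN2 (0.62) and AFT1 (1.01), in early cold for FIT3 (-0.15) and AFT1 (-0.031), in middle cold for FIT3 (-0.083), in heat against cold early for FET3 (0.13), ARN1 (1.62), FIT2 (-1.71), FIT3 (-0.64) and AFT1 (0.42), and in the middle window for FET3 (0.039), ARN2 (0.44) and AFT1 (0.92). With 2 to 24 h they changed for FIT2 in middle heat (0.043), FIT3 (-0.15) and AFT1 (-0.28) in middle cold, FIT3 (-0.17) and AFT1 (-0.34) in cold middle against early, and FIT2 (0.55) and FIT3 (0.090) in heat against cold middle. Quantile normalization again turned SIT1 in cold middle against early (-0.0089).

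Ranges that crossed 0 when 1 time was left out were, in early cold, AFT1 -0.038 to 0.13, ARN2 -0.032 to 0.39, FET3 -0.036 to 0.089, FIT3 -0.0082 to 0.048 and HMX1 -0.0098 to 1.18. In middle cold they were FIT3 -0.18 to 0.55 and FTR1 -0.73 to 0.057, and in middle heat ARN2 -0.80 to 0.13 and FIT3 -0.60 to 0.28. In cold middle against early they were ARN2 -0.13 to 0.65, FIT2 -0.073 to 0.30, FIT3 -0.19 to 0.53 and SIT1 -0.20 to 0.27. FTR1 ran from -0.92 to 0.021 in heat middle against early and from -1.24 to 0.12 in heat against cold middle. In heat against cold FIT2 ran from -0.53 to 0.24 in the middle window and ARN2 from -0.072 to 0.19 early. In the control AFT1 ran from -0.13 to 0.019, ARN2 from -0.025 to 0.97, FIT2 from -0.16 to 0.52 and FIT3 from -0.31 to 0.54.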
